A study of Mus musculus with 4 samples.

Results

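The BTB zinc finger family was examined in the mouse hippocampus at postnatal day 2, on arrays of tissue labelled as knockout of Zbtb20 and of tissue labelled as littermate wild-type control. Members were all probe sets whose single gene symbol in the platform annotation starts with Zbtb and a digit, which gave 87 of 45037 probe sets and 40 of 18193 genes. Of these genes 14 had 1 probe set and 26 had several, with 9 for Zbtb20. All 40 matched a RefSeq gene by Entrez ID. Of them 39 were protein coding, and Zbtb11os1 was a long non-coding RNA named for its place beside Zbtb11. Total RNA was labelled with biotin and hybridised to 4 one-colour Affymetrix arrays, 2 labelled knockout and 2 labelled control, and both groups carried replicate numbers 1 and 2. The sources used here give neither the allele, the strain nor any Cre driver. They do not say how many animals an array held or whether replicates were different animals, so p-values measure only the spread between arrays.

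BTB zinc finger proteins carry a BTB domain at the amino terminus, which pairs the proteins and recruits corepressor complexes, and C2H2 zinc fingers at the carboxy terminus, which bind DNA. Most members that have been studied repress transcription. Zbtb20 marks the developing hippocampus in mice, where it is needed for the identity of field CA1 neurons, and in mouse liver it represses the fetal gene Afp.

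The values were MAS5 signals on a linear scale, and the 2% trimmed mean was 497 and 156 on the arrays labelled knockout, replicates 1 and 2, against 498 and 158 on those labelled control. Arrays of the same replicate number thus shared a scale, so differences are given within pair 1 (both replicate 1 arrays) and pair 2 (both replicate 2 arrays), as labelled knockout minus labelled control of log2(signal + 32.56). Raw signals of the labelled groups can overlap through this scale alone, so direction is read within pairs. A pair sets 1 array against 1 array and has no test. Over the 87 family probe sets the Spearman correlation was 0.925 between both arrays of pair 1 and 0.986 between both arrays of pair 2, and 0.760 to 0.788 where the replicate numbers differed. These are descriptions over probe sets that share each array. Of 9 markers of hippocampal and pallial neurons, all were measured, with a median percentile among the probe sets of an array between 95.3 and 98.4. Of 10 liver markers 9 were measured. Of these Ttr, which choroid plexus also makes, had 74106 and 9232 on the arrays labelled knockout and 62551 and 3505 on those labelled control. The other 8 summed to 19134 and 333 on the arrays labelled knockout and 56382 and 325 on those labelled control, with log2 differences of -2.28 to -1.37 in pair 1 and -0.10 to 0.08 in pair 2. Albumin alone had 15195 and 45.2 on the arrays labelled knockout, against 39309 and 42.2 on those labelled control. The summed signal of 6 microglial markers was 3957 and 994 on the arrays labelled knockout against 4151 and 1198 on those labelled control. Of these Tyrobp and C1qa were lower on the labelled knockout in both pairs, Cx3cr1 was higher in both, and 3 had opposite signs. The sum of 5 choroid plexus markers was 1829 and 381 on the arrays labelled knockout against 1076 and 310 on those labelled control. Of these Otx2 was lower on the labelled knockout in both pairs (log2 -0.06 and -0.62), and the other 4 were higher in both. For the 3 measured of 4 red blood cell markers the sum was 183 and 116 on the arrays labelled knockout against 224 and 140 on those labelled control. Of these Slc4a1 had opposite signs (log2 0.30 in pair 1 and -0.04 in pair 2), and the other 2 were lower in both.

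Zbtb18 and Zbtb20 gave the brightest signals of the family. Each signal was placed by its percentile among all probe sets of its own array, which does not depend on the array's scale. Probe sets differ in how well they bind their transcript, so this order is one of signals and not of transcript levels. Zbtb18, a repressor needed for the differentiation of cortical and hippocampal projection neurons, ranked first of the 87 family probe sets on all 4 arrays. Its signal was 19370 and 5079 on the arrays labelled knockout and 19408 and 3981 on those labelled control, at percentiles between 99.5 and 99.8. The Zbtb20 probe sets lay at percentiles 93.4 to 98.5 and 91.7 to 99.1 on the arrays labelled knockout, against 94.0 to 99.0 and 84.2 to 98.8 on those labelled control. Of the 10 brightest family probe sets, Zbtb20 held 9 and 8 on the arrays labelled knockout and 9 and 7 on those labelled control. The array label therefore did not separate the Zbtb20 ranks. The next gene on every array was Zbtb41, at percentiles 91.7 and 95.2 on the arrays labelled knockout and 92.4 and 94.3 on those labelled control. The median family probe set lay at percentile 60.3 and 62.0 on the arrays labelled knockout and at 58.8 and 60.6 on those labelled control.

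**Figure D1:**
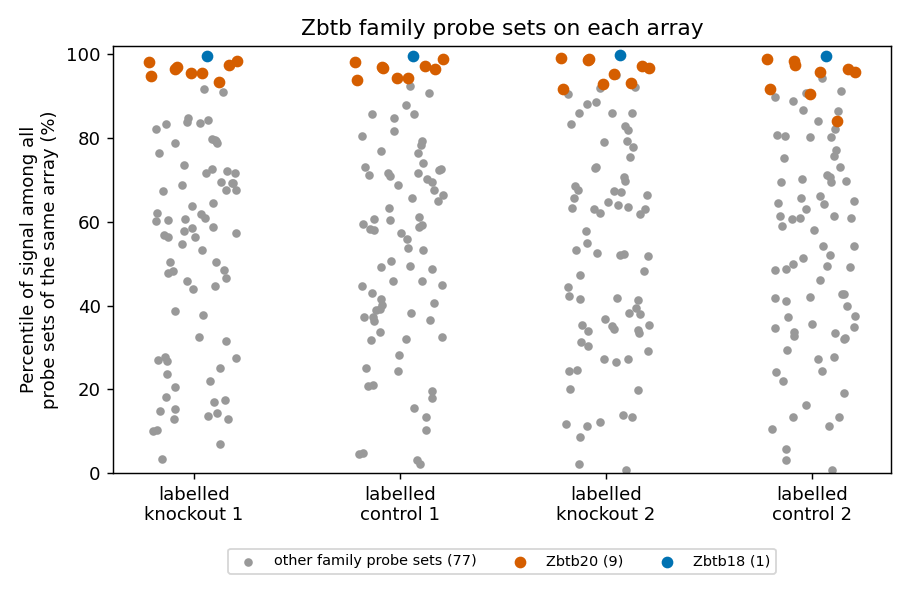
Percentile of the signal of each of the 87 family probe sets among all probe sets of the same array (y axis, %), by array (x axis). Each point is 1 probe set. The Zbtb20 points (orange) and the Zbtb18 point (blue) lie at the top on all 4 arrays, with the lowest Zbtb20 point at 84.2 on the control array of replicate 2.

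The start regions of these genes are shown because they differ in base composition within the family. RefSeq windows of GRCm38.p6, from 250 bases before to 50 after an annotated start, were available for 35 of the 40 genes (48 windows). They held a median of 24.5 CpG dinucleotides and 64.3% G and C, against 7 and 52.7% over all 32851 windows. The single Zbtb20 window in the table had 3 CpG and 43.3% G and C, while the most upstream of 5 Zbtb18 windows had 51 CpG and 81.7%. Capitals mark matches to the motifs described after the sequences.
Zbtb20, chr16:43247034-43247333, plus strand: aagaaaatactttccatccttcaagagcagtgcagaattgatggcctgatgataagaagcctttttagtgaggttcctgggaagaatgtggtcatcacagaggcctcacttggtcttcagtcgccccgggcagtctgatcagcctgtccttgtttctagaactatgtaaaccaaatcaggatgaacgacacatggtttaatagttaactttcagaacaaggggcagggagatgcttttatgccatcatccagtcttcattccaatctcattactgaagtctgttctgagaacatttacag
Zbtb18, chr1:177442101-177442400, plus strand: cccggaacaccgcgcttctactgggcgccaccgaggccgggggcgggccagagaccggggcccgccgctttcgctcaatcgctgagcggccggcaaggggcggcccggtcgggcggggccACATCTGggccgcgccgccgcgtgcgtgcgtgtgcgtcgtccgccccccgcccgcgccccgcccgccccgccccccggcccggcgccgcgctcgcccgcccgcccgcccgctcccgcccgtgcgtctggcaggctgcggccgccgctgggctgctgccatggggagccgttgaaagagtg

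Motifs that family proteins bind were searched on both strands. ACATCTG, the core that the Zbtb18 protein binds, occurred in 3 of 48 family windows (6.25%), against 4.43% of all windows. These were windows of 2 genes, Zbtb18 and Zbtb46. The Zbtb18 window shown held ACATCTG at bases 121 to 127, counted from the window's 5′ end. TCCTGCNA, bound by the Zbtb33 protein Kaiso, occurred in 4 family windows of 2 genes, Zbtb18 and Zbtb37 (8.33% against 4.96%). GCGCGC, bound by the Zbtb14 protein, occurred in 13 family windows of 10 genes (27.1% against 13.6%). The letters of these motifs were not in the Zbtb20 window. A match describes the sequence only, and the windows of 1 gene can overlap. The shares were not adjusted for base composition, in which family windows differed from all windows as given above.

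The targeted gene did not show a shared difference between the labelled groups over its 9 probe sets. In both pairs 4 of them were higher on the labelled knockout (24.2% of all probe sets were) and 0 lower (22.7% of all), and 5 had opposite signs. The sources used here do not place the probe sets against the deleted stretch, and 1 that lies outside it checks nothing. The widest difference was at 1443471_at. Its signal was 2412 on the array labelled knockout and 4939 on that labelled control in pair 1, and 592 on the array labelled knockout and 284 on that labelled control in pair 2. The sign turned between the pairs (log2 -1.02 and 0.98). Its rank in the family was 10 and 9 on the arrays labelled knockout, and 4 and 17 on those labelled control. Markers of the subiculum and retrosplenial cortex had the same signs as this probe set. By the brightest probe set of each, all 6 (Nts, Nr4a2, Tshz2, Tshz3, Tpbg and Ntng2) had negative differences in pair 1 and positive ones in pair 2. Of all 45037 probe sets 14436 had these signs. Tpbg (-0.38 and 0.17) and Ntng2 (-0.33 and 0.08) differed least of the 6. Counting all 16 of their probe sets, negative differences numbered 14 in pair 1 (54.7% of all probe sets), and positive ones 15 in pair 2 (56.3% of all). The summed signal of the brightest was 11046 and 9200 on the arrays labelled knockout against 34780 and 2148 on those labelled control. The 8 liver markers other than Ttr had negative differences in pair 1. The lowest signal of any probe set was 0.3 on each replicate 1 array and 1 on each replicate 2 array. A signal above 0 therefore does not show that cells of a type were present. The part of these markers in the Zbtb20 values was not tested. In bulk tissue, fewer cells of a type and less RNA per cell cannot be told apart.

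The other Zbtb20 probe sets differed by less. The brightest over the 4 arrays, 1437598_at, had 6681 and 2581 on the arrays labelled knockout and 6613 and 2299 on those labelled control, or log2 0.01 in pair 1 and 0.16 in pair 2. The values lay close within each pair. 1439128_at was lower in pair 1 and higher in pair 2, with 8066 and 1049 on the arrays labelled knockout against 10819 and 925 on those labelled control (log2 -0.42 and 0.18). 1438443_at had the same signs at -0.16 and 0.04. 1437066_at went the other way, with 3396 and 802 on the arrays labelled knockout and 2699 and 910 on those labelled control (0.33 and -0.18), as did 1439278_at (0.20 and -0.01). Besides 1437598_at, the probe sets higher in both pairs were 1451577_at (0.28 and 0.33), 1437065_at (0.45 and 0.16) and 1422064_a_at (0.08 and 0.60). 1451577_at had 3322 and 588 on the arrays labelled knockout against 2731 and 460 on those labelled control. 1422064_a_at had 4549 and 2096 on the arrays labelled knockout against 4304 and 1375 on those labelled control. None of the 9 passed limma's test, without the replicate number (largest log2 0.34 ± 1.90, SE, n = 2 per group) or with it as a block. In the blocked limma fit 1451577_at came closest, at log2 0.31 ± 0.14 (SE, n = 2 per group, adjusted p = 1).

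**Figure D2:**
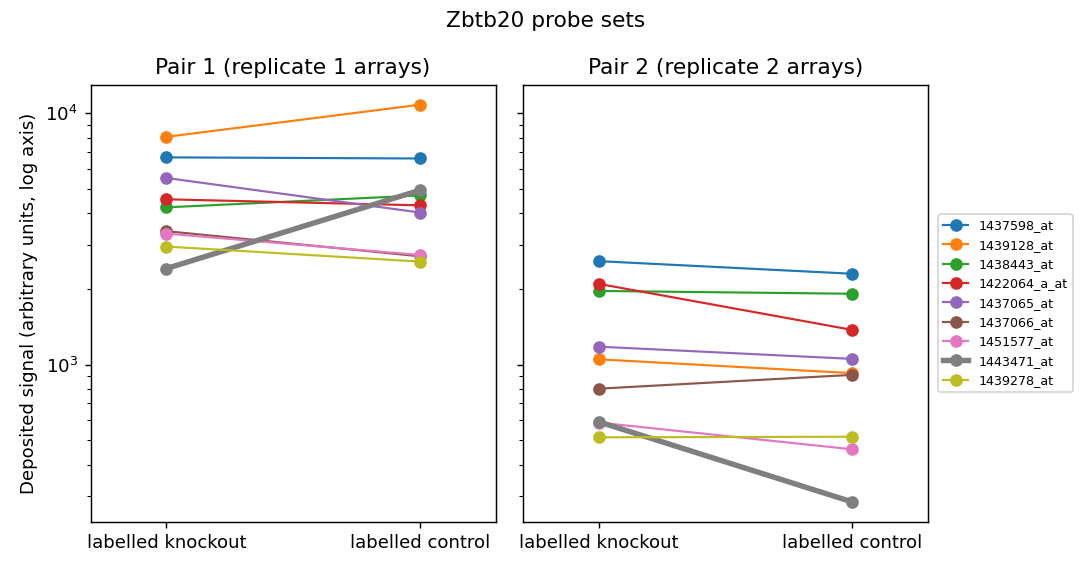
Deposited signal (log axis, arbitrary units) of the 9 Zbtb20 probe sets on the array labelled knockout and the array labelled control of each pair. Lines join the same probe set, and the thick line is 1443471_at, which slopes in opposite directions in the 2 pairs.

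Over the whole family, limma called 0 of 87 probe sets at an adjusted p of 0.05 without the block (0% of all 45037 were called) and 0 with it (0% of all). Without the block 0 members were under an unadjusted p of 0.05, and 25 of all probe sets were. With the block 1 member was, against 0.813% of all probe sets. That member was Zbtb7a 1450093_s_at, at log2 -0.86 ± 0.36 (SE, n = 2 per group, adjusted p = 1). Both fits give the same differences by construction, as each replicate number holds both groups equally. By these differences 47 members lay above 0 and 40 below, with a median of log2 0.03 for the family and -0.02 for all probe sets.

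Members past a 2-fold difference were found in pair 1 only. There 3 members were over 2-fold higher on the labelled knockout (3.63% of all probe sets were) and 9 over 2-fold lower (6.48% of all). In pair 2, 0 members were over 2-fold higher (0.153% of all) and 0 lower (0.178% of all). By the ratio of signals without the pseudocount, Zbtb20 1443471_at was at 2.08 in pair 2, which this count leaves out. The median difference was log2 -0.00282 in pair 1 and 0.04 in pair 2, against -0.05 and 0.02 over all probe sets. Signs matched in both pairs for 42 members, against 46.9% of all probe sets. Of these, 26 were higher in both pairs (24.2% of all) and 16 lower in both (22.7% of all), and 45 had opposite signs. In pair 2, 84 of the 87 members lay within log2 0.35 of 0, and 42006 of all 45037 probe sets did. The exceptions among the members were Zbtb20 1443471_at and 1422064_a_at, and Zbtb41 1439089_at at 0.45.

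**Figure D3:**
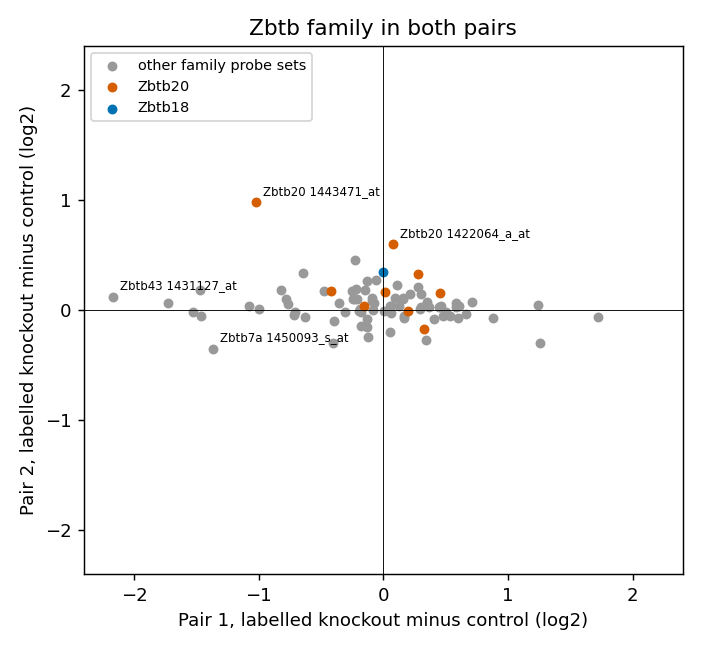
Difference between the array labelled knockout and the array labelled control in pair 1 (x axis) and pair 2 (y axis), log2(signal + 32.56), for the 87 family probe sets. The points spread along the x axis, and the Zbtb20 probe set 1443471_at lies apart at -1.02 and 0.98.

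Wide differences in pair 1 went with dim signal. Of the 34 members with a mean percentile under 50 over the 4 arrays, 9 (26.5%) were over 2-fold apart in pair 1, against 17.1% of all probe sets as dim. Of the 53 brighter members 3 (5.66%) were, against 2.50% of all probe sets as bright. In pair 2 none of the dim members lay beyond log2 -0.30 and 0.18. Probe sets of 1 gene did not always point one way. Of the 26 genes with several, 7 had all of them on the same side of 0 in pair 1 and 11 in pair 2. In 11 of these genes a probe set was over 2-fold apart in pair 1, and in 10 of the 11 it was not the brightest. Zbtb43, a regulator in the germline, is an example. Its dim probe set 1431127_at had 12.1 and 56.2 on the arrays labelled knockout against 168 and 49.0 on those labelled control (log2 -2.17 and 0.12). Its bright probe set 1435900_at had 722 and 249 on the arrays labelled knockout against 719 and 251 on those labelled control (0.01 and -0.01). Zbtb34 was at -1.53 and -0.02 by 1447042_at and at 0.40 and -0.08 by the brighter 1436085_at.

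**Figure D4:**
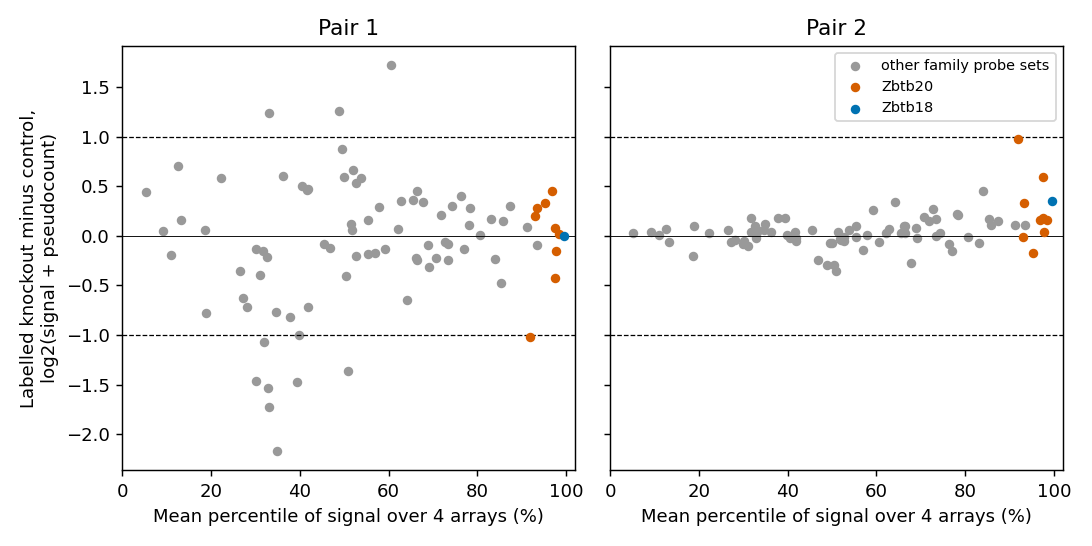
Difference between the array labelled knockout and the array labelled control (y axis, log2(signal + 32.56)) against the mean percentile of signal over the 4 arrays (x axis, %), for pair 1 (left) and pair 2 (right). Points are the 87 family probe sets, and dashed lines mark a difference of 1 either way on that log2 scale. In pair 1 the points past the lines are mostly those of low percentile, and in pair 2 none is past them.

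Among members with known parts in brain development, Zbtb18 differed by log2 -0.00282 in pair 1 and 0.35 in pair 2, with the signals given above. The array labelled knockout was thus level with its control in pair 1 and higher in pair 2. Zbtb45, which acts in glial differentiation in mice, was of middling brightness, with 350 and 60.7 on the arrays labelled knockout against 400 and 61.5 on those labelled control. It differed by -0.18 and -0.01, small in both pairs.

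The genes whose proteins bind methylated DNA were Zbtb33, Zbtb4 and Zbtb38, with 9 probe sets. Of these 1 was higher in both pairs (24.2% of all probe sets were), 1 lower in both (22.7% of all) and 7 opposite. Signs were opposite for 23849 of all 45037 probe sets. Zbtb33 (Kaiso) was the brightest by 1434022_at, with 1836 and 540 on the arrays labelled knockout against 1721 and 497 on those labelled control, and differed by 0.09 and 0.11. Zbtb4 had 696 and 370 on the arrays labelled knockout against 616 and 392 on those labelled control by 1429722_at, at 0.17 and -0.08. For Zbtb38, also known as CIBZ, the probe sets disagreed. 1434687_at had 206 and 212 on the arrays labelled knockout against 39.6 and 223 on those labelled control, at 1.72 and -0.07. Its percentiles were 58.5 and 79.1 on the arrays labelled knockout and 24.3 and 80.2 on those labelled control. 1437650_at, the brightest, was at -0.25 and 0.17, and 1438269_at at -0.82 and 0.18.

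The members known for roles in blood and immune lineages were Zbtb1, Zbtb7a, Zbtb7b, Zbtb16, Zbtb17, Zbtb25, Zbtb32 and Zbtb46. Of their 20 probe sets 14 had a mean percentile under 50, as did 23424 of all 45037 probe sets. The median of the 20 was 41.8, against 55.3 for the family, 51.9 for the family without Zbtb20 and 48.0 for all probe sets. In pair 1, 5 of the 20 were over 2-fold lower on the labelled knockout (6.48% of all probe sets were) and 2 over 2-fold higher (3.63% of all). Of these 7, 6 had a mean percentile under 50, where 17.1% of all probe sets were over 2-fold apart. In pair 2 all 20 lay within log2 0.35 of 0, as did 42006 of all 45037 probe sets. Zbtb7a (LRF), needed for B cell fate and red cell maturation, went both ways in pair 1. Its probe set 1450093_s_at had 19.3 and 130 on the arrays labelled knockout against 101 and 174 on those labelled control, at -1.37 and -0.35. Its probe set 1452932_at had 107 and 50.1 on the arrays labelled knockout against 26.7 and 47.6 on those labelled control, at 1.24 and 0.04. The first was thus lower in both pairs and the second higher in both. Zbtb7b (ThPOK), the determinant of helper T cells, had 13.6 and 46.5 on the arrays labelled knockout against 94.7 and 49.3 on those labelled control by 1420663_at, at -1.46 and -0.05. Its brightest probe set 1455071_at was at -0.71 and -0.02.

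Zbtb16 (PLZF), the regulator of innate-like T cells and spermatogonia, was the brightest of this set by 1439163_at, with 986 and 108 on the arrays labelled knockout against 1048 and 108 on those labelled control. That probe set differed by -0.09 and -0.000716, while the dim 1427638_at was at -1.0002 and 0.01. Zbtb17 (Miz1), a partner of Myc, was at -0.09 and 0.08 by 1416224_at and at -1.47 and 0.18 by the dim 1443041_at. Zbtb25 was at 0.45 and 0.03 by its brightest probe set and at -1.08 and 0.04 by 1430344_at. Zbtb46, a marker of classical dendritic cells, was at -0.18 and -0.15 by 1429168_at and at 1.26 and -0.30 by 1454884_at. Zbtb1, needed for lymphocyte development, was at 0.88 and -0.07, and Zbtb32, expressed in activated lymphocytes, at -0.21 and 0.10. Of 6 lymphocyte markers 5 were measured, and their summed signal was 211 and 312 on the arrays labelled knockout and 174 and 301 on those labelled control. Their median percentile was 17.5 and 33.8 on the arrays labelled knockout and 14.6 and 35.2 on those labelled control. In pair 1 Cd3g had 82.9 on the array labelled knockout against 9.5 on that labelled control, while 3 of the 5 markers were lower. Such dim signals do not show that lymphocytes were present, and the part of these markers in the family values was not tested.

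The genes tied to telomere and centromere repeats were Zbtb10, Zbtb24 and Zbtb48, with 6 probe sets. Of these 1 was higher in both pairs (24.2% of all), 0 lower in both (22.7% of all) and 5 opposite (23849 of all 45037). Zbtb48, whose human protein TZAP binds telomeres and trims them, was at 0.06 and -0.03. Zbtb24, mutated in a human syndrome of centromere instability, was at -0.25 and 0.10 by 1438218_at. Zbtb10, whose human protein binds variant telomere repeats, had 396 and 199 on the arrays labelled knockout against 414 and 159 on those labelled control, at -0.06 and 0.28.

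The other genes comprised 41 probe sets, with medians of 0.01 and 0.04. Of these 16 were higher in both pairs (24.2% of all probe sets were), 8 lower in both (22.7% of all) and 17 opposite. Zbtb14 (ZF5), which binds GC-rich promoters, was higher in pair 2 by all 4 of its probe sets, at 0.15 to 0.26. In pair 1 its probe sets lay between -0.13 and 0.28. The brightest, 1420865_at, had 733 and 213 on the arrays labelled knockout against 676 and 178 on those labelled control. Zbtb11, mutated in a human intellectual disability disorder, had 1055 and 521 on the arrays labelled knockout against 848 and 467 on those labelled control, at 0.30 and 0.15. Zbtb11os1, the non-coding neighbour, had 281 and 43.1 on the arrays labelled knockout against 382 and 60.2 on those labelled control, at -0.40 and -0.29. Both differences of Zbtb11 were positive and both of Zbtb11os1 negative, and neither gene passed limma's test.

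Zbtb41 was at -0.09 and 0.11 by 1428779_at. By 1439089_at it had 953 and 321 on the arrays labelled knockout against 1121 and 226 on those labelled control. Zbtb6 was at 0.16 and 0.11, Zbtb26 at 0.16 and 0.10, Zbtb39 at 0.07 and 0.03, Zbtb40 at 0.58 and 0.06 and Zbtb8a at 0.37 and 0.03, each by its brightest probe set. These 5 lay above 0 in both pairs. Zbtb22 was at -0.13 and -0.16, Zbtb12 at -0.31 and -0.02 and Zbtb8b at -0.20 and -0.01, below 0 in both. Zbtb37 was at -0.63 and -0.07 by 1440423_at and at 0.58 and 0.03 by its other probe set 1457810_at, so the signs of both pairs turned with the probe set. Zbtb2, whose human protein represses the cell cycle inhibitor gene CDKN1A as ZBTB5 does, was at 0.30 and 0.02 by 1434901_at and at -0.72 and -0.04 by the dim 1457037_at. Zbtb5 was at -0.23 and 0.10. By their brightest probe sets, Zbtb44 was at -0.48 and 0.17, Zbtb21 at -0.22 and 0.19, Zbtb3 at -0.08 and 0.06, and Zbtb42, the closest relative of Zbtb18, at -0.35 and 0.06. Zbtb49 was at 0.54 and -0.05. Zbtb7c, a regulator of lipid synthesis, was at 0.61 and 0.04 by its brightest probe set and at -1.72 and 0.06 by 1433019_at, with 17.9 and 50.8 on the arrays labelled knockout against 134 and 47.2 on those labelled control.

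The replicate number separated the family more than the array label did. The mean percentile of the replicate 1 arrays differed from that of the replicate 2 arrays by more than the groups differed for 63 of 87 members (72.4%), and for 79.6% of all probe sets. The median absolute gap was 6.71 percentile points between replicate numbers and 2.55 between labelled groups. The widest gap was that of Zbtb49 1428627_at, at percentiles 25.2 and 86.0 on the arrays labelled knockout and 13.3 and 86.6 on those labelled control. Zbtb16 1439163_at leaned the other way, at 83.9 and 62.1 on the arrays labelled knockout and 84.9 and 63.0 on those labelled control. For Zbtb20 the gap between replicate numbers was the wider in 8 of 9 probe sets.

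By RefSeq, 4 pairs of members are adjacent protein-coding genes, namely Zbtb25 and Zbtb1 on chromosome 12, Zbtb34 and Zbtb43 and also Zbtb6 and Zbtb26 on chromosome 2, and Zbtb8a and Zbtb8b on chromosome 4. By their brightest probe sets, Zbtb25 and Zbtb1 were both higher in pair 1 (0.45 and 0.88) and on opposite sides of 0 in pair 2 (0.03 and -0.07). Zbtb34 and Zbtb43 lay above 0 in pair 1 (0.40 and 0.01) and below it in pair 2 (-0.08 and -0.01). Zbtb6 and Zbtb26 lay above 0 in both pairs, while Zbtb8a and Zbtb8b had opposite signs in both.

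BTB zinc finger genes under other symbols, and genes of BTB partners, also gave no calls. Of 10 such zinc finger genes 8 were measured under those symbols, the other 2 being older names of Zbtb14 and Zbtb18. limma called 0 of their 17 probe sets with or without the block. The medians over all 17 were 0.09 in pair 1 and 0.06 in pair 2, and over the brightest of each gene 0.30 and -0.02. In pair 1, 2 of the 17 were over 2-fold higher (3.63% of all probe sets were), Hic1 1449226_at and Hic2 1427581_at (2.05 in pair 1 and 0.08 in pair 2). Bcl6, the repressor of germinal centre B cells that also acts in cortical neurogenesis, had 610 and 102 on the arrays labelled knockout against 304 and 207 on those labelled control, at 0.94 and -0.84, so its sign turned between pairs. Hic1, a tumour suppressor gene, had 128 and 89.7 on the arrays labelled knockout against 24.7 and 89.8 on those labelled control (1.48 and -0.00130). Of 16 partners and corepressors 14 were measured, and limma called 0 of their 41 probe sets. The medians over all 41 were 0.21 in pair 1 and 0.08 in pair 2, against -0.05 and 0.02 over all probe sets of the arrays, and over the brightest of each gene 0.06 and 0.08. In both pairs 23 of the 41 were higher on the labelled knockout (24.2% of all) and 2 lower (22.7% of all). These 41 repeat genes. By the brightest probe set of each of the 14 genes, 5 were higher in both pairs, 1 lower in both and 8 opposite. Over 2-fold higher in pair 1 were 2 of them, Bcor 1452910_at (1.28 and 0.08) and Tbl1xr1 1422761_at (1.27 and 0.05), neither the brightest of its gene. Cul3, whose ubiquitin ligase uses BTB proteins as adaptors, was at 0.10 and 0.31, and the corepressor deacetylase gene Hdac3 at 0.26 and 0.03.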

How the data were processed

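Total RNA of hippocampi at postnatal day 2 was measured on 4 one-colour Affymetrix arrays, 2 per labelled group. The authors deposited linear signal intensities, for which the submitters' processing notes name MAS5. Version, scaling target and detection calls are not given in the sources used here. Names came from the platform annotation, in which 34945 probe sets had 1 symbol, 932 several and 9160 none.

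Signals were transformed as log2(signal + 32.56), the pseudocount being the 20th percentile of all values, so differences of dim probe sets are understated. limma 3.58.1 in R 4.3.3 (lmFit, eBayes with trend) was fitted on all 45037 probe sets without a filter, labelled knockout minus labelled control, with Benjamini-Hochberg adjustment over all and a threshold of 0.05. The fit had 2 residual degrees of freedom, or 1 under the replicate block. Prior degrees of freedom were infinite without the block, so each SE without it is the trend value at that brightness and holds the difference in scale between replicates. Precision is limited by the number of arrays. Same-numbered arrays deviated together from their group means (correlation 0.842 across probe sets), and the labels do not say what the number marks. Blocked values are therefore given beside the others. The blocked fit was tested on simulated data, whose noise was not set from these arrays. No condition was set there for the fit without the block, so what that fit could find is not shown.

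The members and lists were chosen with earlier results of these data known. Named are all Zbtb20 probe sets, the brightest probe set of each other gene (highest mean), further members over 2-fold apart in a pair, those with the smallest p, and listed other genes whose brightest probe set was over 2-fold apart. A few others, the role groups and the split by brightness were chosen after values were seen. As alternatives, values were quantile normalized, centred on the 75th percentile, or rescaled to 1 trimmed mean, and fits used other pseudocounts, filters on dim probe sets, 1 probe set per gene, other variance settings, the block, or 3 of the 4 arrays. Promoter windows are RefSeq's, and Python 3.11.15 searched them.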

Additional observations from a re-analysis of the deposited data

How the results depend on the processing

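The counts of 0 calls, for the family and for all probe sets, were also 0 under every alternative run, the replicate block included, and when each array was left out (0 to 0). In those fits the lone array of a group was assumed to vary like the other group. The number of members over 2-fold apart in pair 1 was 12 as reported. It was 5 with quantile normalization, 22 with a floor of 1 and no pseudocount, 5 with the filter at the 40th percentile (61 members left), and 1 with the filter at the 60th percentile or with 1 probe set per gene (40 members left each). In pair 2 it was 0 as reported and 1 with quantile normalization, with 1 trimmed mean or with the floor of 1. Counts of members with matching signs stayed between 47.5% and 55% of those kept.
The limma difference of Zbtb20 1443471_at (-0.02) was 0.057 with quantile normalization, 0.00849 with 1 trimmed mean and 0.0122 with the floor, and that of 1438443_at was 0.0128 with quantile normalization. Leaving out each array in turn sets arrays of different scale against each other and turned the sign of all 9 Zbtb20 probe sets. Their limma differences then ran from -0.47 to 1.15 for 1422064_a_at, -0.79 to 1.41 for 1437065_at, -0.94 to 1.10 for 1437066_at, -0.67 to 0.84 for 1437598_at, -0.70 to 0.58 for 1438443_at, -1.87 to 1.63 for 1439128_at, -1.13 to 1.32 for 1439278_at, -2.01 to 1.96 for 1443471_at, -0.94 to 1.55 for 1451577_at. None passed the test. The replicate block left these differences as they were, with smaller SEs, and changed no call.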
